A study of Homo sapiens with 12 samples.

Results

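The genes described here are those of fatty acid oxidation and acylcarnitine metabolism: 39 named genes that activate long-chain fatty acids, carry them into mitochondria as acylcarnitines, and break them down by β-oxidation in mitochondria and peroxisomes, with a few of their regulators. All 39 were found by symbol among 57500 gene identifiers, and 38 of them were among the 16402 genes with enough counts to be tested. The cells were THP-1, a line grown from a human monocytic leukaemia, and every group carried a lentivirally delivered non-target shRNA. Poly(A)-selected RNA was sequenced from 4 groups of 3 libraries each: 10% CO2 with LPS, 5% CO2 with LPS, 10% CO2 and 5% CO2. Cells spent 4 h in buffered medium at their CO2 level, so that 10% CO2 stands for buffered hypercapnia and 5% CO2 for normocapnia. The groups with LPS, a bacterial cell wall lipid that activates TLR4, received 2.5 µg/ml of it for the last 2 h. The groups share 1 cell line and 1 shRNA construct, and the labels do not say whether replicates were separate cultures. The p-values therefore reflect the variation among these libraries alone, and that variation may be technical.

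A fatty acid is first joined to coenzyme A by an acyl-CoA synthetase of the ACSL family, a step that also serves lipid storage and phospholipid synthesis. Carnitine palmitoyltransferase CPT1 then moves the long chain onto carnitine, the carrier SLC25A20 takes the acylcarnitine across the inner mitochondrial membrane, and CPT2 returns it to coenzyme A. Inside, an acyl-CoA dehydrogenase, a hydratase, a further dehydrogenase and a thiolase shorten the chain, and the electrons of the opening step pass through the flavoproteins ETFA and ETFB to ETFDH and on to ubiquinone. In macrophages the pathway is known as a fuel route that differs between resting, inflammatory and alternatively activated states.

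Upstream sequences are shown for the members with the 2 largest rises with LPS at 10% CO2 (ACSL1 and ACSL5) and for 2 of the 8 that fell (PDK4 and MLYCD), as examples of either direction. RefSeq promoter windows (GRCh38.p14) were found for 32 of the 39 members. Each line gives the longest stretch of the 250 bases before the RefSeq start that holds no exon of any gene in the count tables, 5′ to 3′ on the gene's strand. Capitals mark matches on either strand to the GC box (GGGCGG), the CCAAT box (CCAAT) and the AGGTCA motif of PPAR, RXR and other nuclear receptors. The ACSL1 stretch is chr4:184826120-184826218 on the minus strand, and that of ACSL5 is chr10:112375018-112375234 on the plus strand. PDK4 is shown at chr7:95596517-95596681 on the minus strand, and MLYCD at chr16:83898865-83899114 on the plus strand. The ACSL1 and ACSL5 stretches lie inside the genes as counted, which reach to 184826818 for ACSL1 and begin at 112374018 for ACSL5. They are thus upstream of the RefSeq start only, while the PDK4 and MLYCD stretches lie outside the counted genes.
ACSL1: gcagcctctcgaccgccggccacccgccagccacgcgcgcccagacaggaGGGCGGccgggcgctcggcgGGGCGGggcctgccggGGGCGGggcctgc
ACSL5: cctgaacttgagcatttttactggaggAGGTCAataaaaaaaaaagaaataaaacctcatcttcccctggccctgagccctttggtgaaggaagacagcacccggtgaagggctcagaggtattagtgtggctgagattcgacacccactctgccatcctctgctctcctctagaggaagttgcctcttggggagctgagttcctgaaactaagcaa
PDK4: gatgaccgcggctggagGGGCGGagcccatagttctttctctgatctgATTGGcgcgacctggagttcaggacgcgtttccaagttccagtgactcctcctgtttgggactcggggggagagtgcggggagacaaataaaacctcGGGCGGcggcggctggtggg
MLYCD: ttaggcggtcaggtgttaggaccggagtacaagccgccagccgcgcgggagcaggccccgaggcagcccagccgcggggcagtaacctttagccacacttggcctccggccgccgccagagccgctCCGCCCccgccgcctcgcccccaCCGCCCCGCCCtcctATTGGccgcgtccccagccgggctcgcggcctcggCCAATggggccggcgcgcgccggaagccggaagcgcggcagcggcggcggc

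Over the whole windows, read on both strands, ACSL1 held 6 GC boxes, of which 3 lie in the printed stretch, and no CCAAT box, PDK4 held 2 GC boxes and 1 CCAAT box, and MLYCD held 3 GC boxes and 2 CCAAT boxes. The synthetase genes differed in these letters: ACSL5 had neither box and carried 1 AGGTCA, 223 bases before its RefSeq start. AGGTCA occurred in 3 member windows (ACSL5, ACSL6 and ACAD10) and in 12.1% of all 35116 RefSeq windows, and the pair of AGGTCA copies 1 base apart that PPAR-RXR binds occurred in 0 member windows and in 0.0171% of all. A GC box stood in 26 of the 32 member windows and in 42.6% of all windows, and a CCAAT box in 9 member windows and in 32.0% of all. The NF-κB-like motif GGGANTTTC and the AP-1 motif TGANTCA were in 0 member windows, and in 1.12% and 6.57% of all windows. A match is a match of letters in this window and says nothing of binding.

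Libraries held 17132910 to 22151327 counts. All 16 monocytic marker genes had a median above 1 CPM (counts scaled to library size, with TMM factors), and all 4 T cell, both erythroid and both hepatocyte markers had a median below 1 CPM. Of the stromal, epithelial and muscle markers, COL1A1 (1.75 CPM), PDGFRB (1.03 CPM), KRT8 (1.83 CPM) and CKM (27.0 CPM) had a median above 1 CPM. The share of counts from mitochondrial DNA was 2.28 to 4.15% at 10% CO2 with LPS, against 1.28 to 1.78% at 5% CO2 with LPS, and 2.01 to 3.05% at 10% CO2, against 1.31 to 1.96% at 5% CO2. It therefore moved with CO2 in the same libraries as every CO2 result below. A refit without mitochondrially encoded genes called 6 members for CO2 with LPS, against 5 in the main fit. Averaged over LPS it called 9, against 8, and without LPS 0 in both fits. That refit bears on the scaling of counts alone, and any other part of this share in the CO2 results was not tested. Counts are relative to the library, so fewer cells that express a gene and less RNA per cell cannot be told apart.

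Per kilobase of exon, mean levels of the 39 members ranged from 0.00901 to 99.7 CPM per kb. HADHA, the α subunit of the trifunctional protein that carries the hydratase and dehydrogenase activities for long chains, led with a mean of 99.7 CPM per kb over the 12 libraries. It was followed by ACSL1 (68.2 CPM per kb), the short-chain hydratase ECHS1 (56.8), the very long chain dehydrogenase ACADVL (45) and the trifunctional β subunit HADHB (38.3). CPT1A, the liver-type isoform of the gatekeeper enzyme, stood at 24.3 CPM per kb, and CPT1B, the muscle isoform, at 0.874 CPM per kb. CPT1B shares 66.4% of its exon bases with the readthrough gene CHKB-CPT1B, so its count is uncertain. At the low end, ACAD11 had 0.0555 CPM per kb and ACSL6, the member too low to be tested, 0.00901 CPM per kb (0.117 CPM).

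Summed over the members of each step, the activation genes differed most between the 4 groups. The 5 ACSL genes summed to 203 ± 22.9 CPM per kb at 10% CO2 with LPS, against 128 ± 18.1 at 5% CO2 with LPS, and to 60.9 ± 7.78 at 10% CO2, against 58.8 ± 3.37 at 5% CO2 (SD, n = 3 each). The 7 shuttle genes summed to 41.9 ± 3.89 CPM per kb at 10% CO2 with LPS, against 46.3 ± 3.38 at 5% CO2 with LPS, and to 50.7 ± 2.51 at 10% CO2, against 52.5 ± 0.117 at 5% CO2 (SD, n = 3 each). All 6 libraries with LPS lay above all 6 without it for the activation sum. For the shuttle sum the means with LPS were the lower ones, but 1 library at 5% CO2 with LPS (50.2 CPM per kb) reached the range of those at 10% CO2. For the electron transfer genes the sums were 46.8 ± 0.916 CPM per kb at 10% CO2 with LPS, against 42.1 ± 2.01 at 5% CO2 with LPS, and 40.0 ± 2.08 at 10% CO2, against 36.3 ± 1.04 at 5% CO2 (SD, n = 3 each). The regulators, dominated by PPARD, summed to 21.0 ± 6.31 CPM per kb at 10% CO2 with LPS, against 31.5 ± 7.89 at 5% CO2 with LPS, and to 23.7 ± 4.07 at 10% CO2, against 33.4 ± 5.51 at 5% CO2 (SD, n = 3 each). No test was made of these sums.

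**Figure D1:**
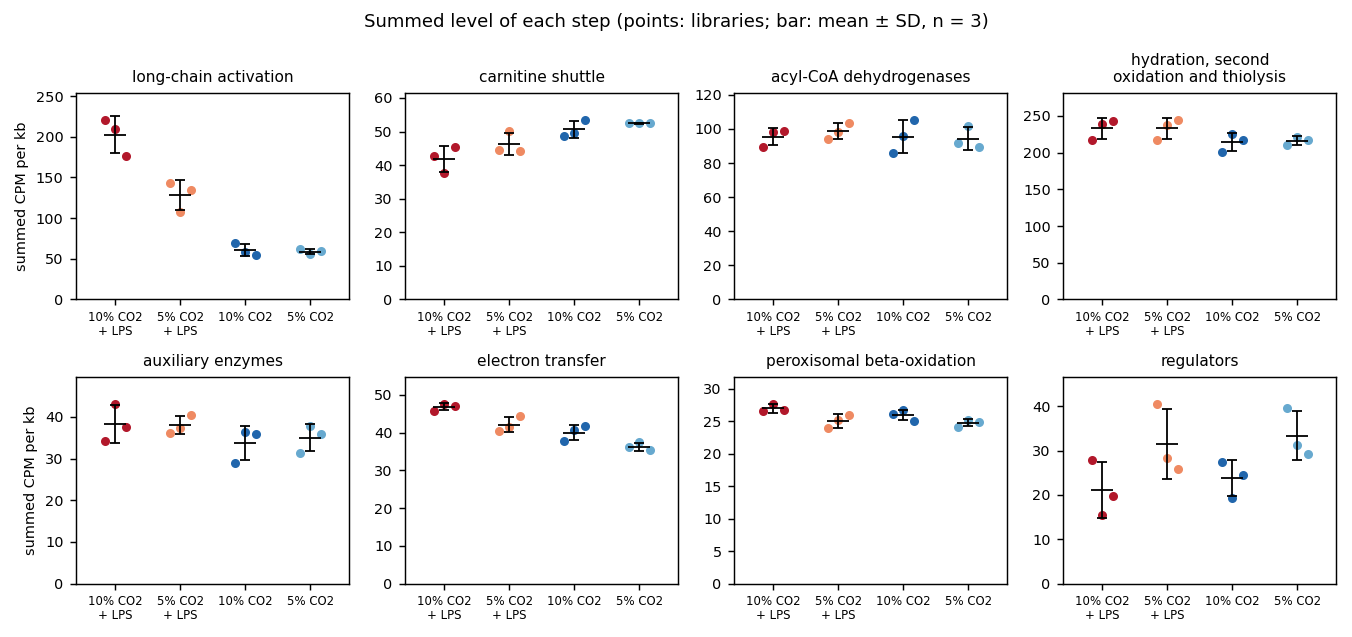
Summed CPM per kilobase of exon over the members of each step, in each library (points) with the mean and SD of the 3 libraries (bars), by group. The activation panel rises to 203 CPM per kb at 10% CO2 with LPS, against 58.8 at 5% CO2, while the panels of acyl-CoA dehydrogenases and of auxiliary enzymes overlap across all 4 groups.

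The members responded to LPS about as often as other genes did. At 10% CO2, 14 of 38 members (36.8%) were called with LPS, 6 higher and 8 lower, against 35.2% of all genes tested (16.6% higher and 18.6% lower). At 5% CO2, 9 of 38 (23.7%) were called, 3 higher and 6 lower, against 24.9% of all genes (11.8% higher and 13.1% lower). Calls rest on edgeR's quasi-likelihood test, with p-values adjusted over the whole table by the Benjamini-Hochberg method and a threshold of 0.05, and every adjusted p below comes from it unless another tool is named. These shares lie near the background and are no result about the members as a set. The median log2 change of the members was −0.01 at 10% CO2 and 0.01 at 5% CO2, against −0.02 and −0.01 over all genes. All 3 members called higher and all 6 called lower at 5% CO2 were also called in that direction at 10% CO2, though both contrasts are fitted in the same model.

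For 10% against 5% CO2, the calls were fewer. With LPS, 5 of 38 members (13.2%) were called, 4 higher and 1 lower, against 8.75% of all genes (4.29% higher and 4.46% lower). Without LPS, 0 of 38 members were called, against 1.46% of all genes. In that contrast 9 of 38 members had an unadjusted p under 0.05, against 17.4% of all genes. DESeq2 called 0 members there, against 669 of 16402 genes. The smallest adjusted p from edgeR was 0.122, for ETFDH. Averaged over both LPS states, 8 of 38 (21.1%) were called, 6 higher and 2 lower, against 16.8% of all genes (8.06% higher and 8.69% lower). The count with LPS fell to 1 when 10% CO2 with LPS replicate 2 was left out, a fit that called 271 of 16867 genes. It reached 7 without 10% CO2 replicate 1 or 3, fits that called 1706 of 16863 and 1694 of 16839 genes. The main fit called 1435 of 16402 genes, so the count over all genes moved in the same directions. For the interaction, the LPS effect at 10% CO2 minus that at 5% CO2, 0 of 38 members were called, against 0.0244% of all genes. There 2 of 38 members, ACSL1 and ACSL5, had an unadjusted p under 0.05, against 6.03% of all genes. DESeq2 called 0 members for the interaction, against 55 of 16402 genes. The smallest adjusted p from edgeR was 0.680, for ACSL5.

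**Figure D2:**
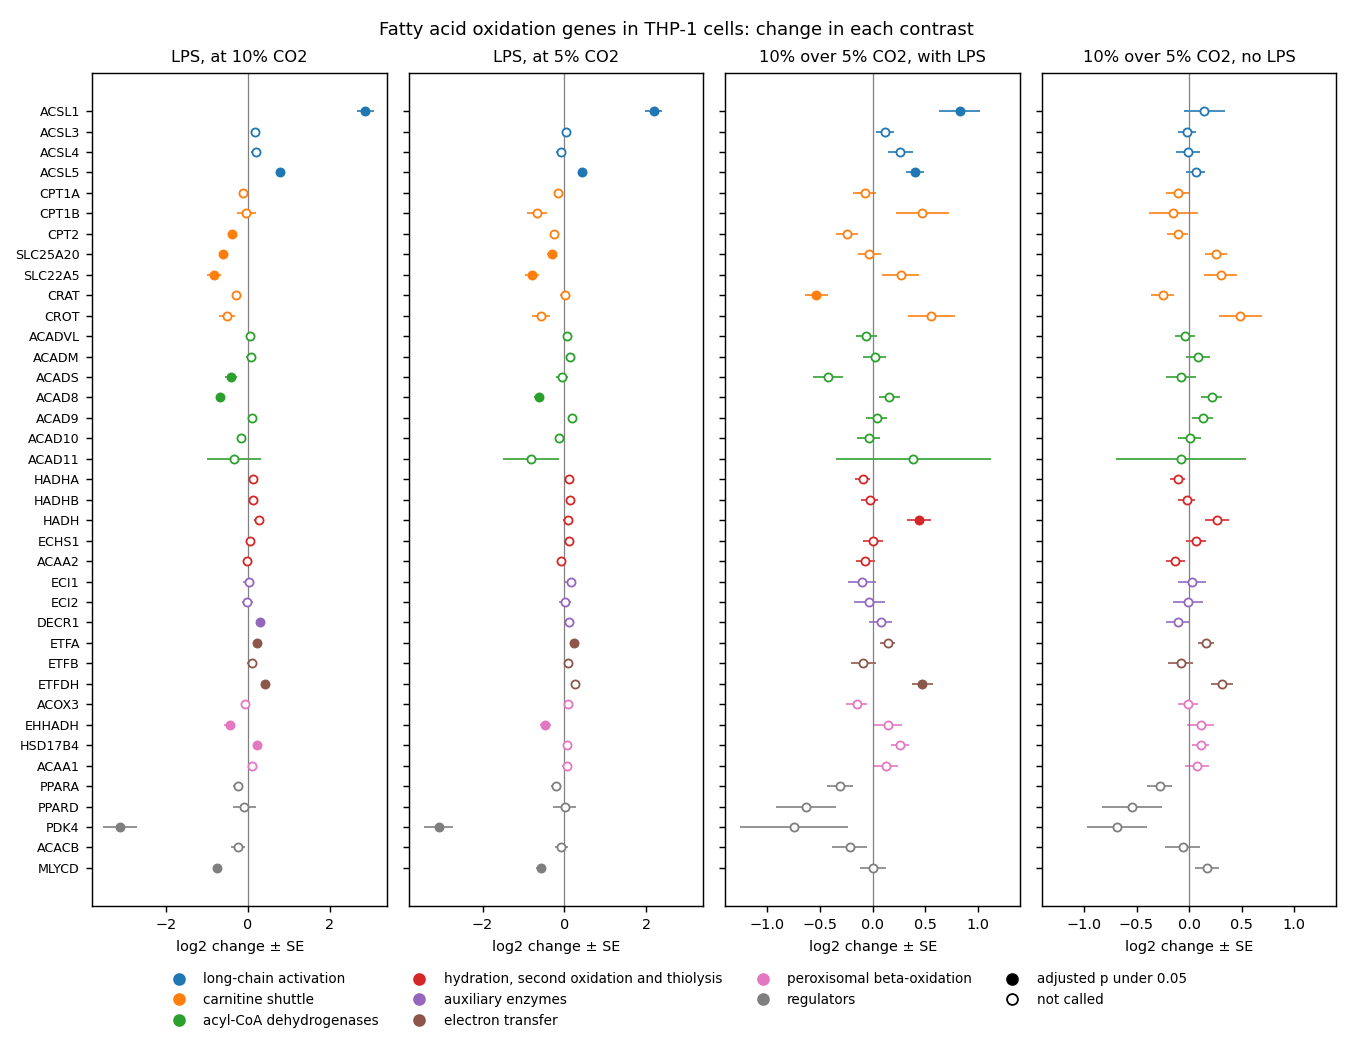
Log2 change (horizontal axis, ± SE from the fit) of the 38 tested members (rows, coloured by step) in the 4 pairwise contrasts, filled where the adjusted p was under 0.05. ACSL1 (2.87 at 10% CO2) and PDK4 (−3.12 at 10% CO2) stand far from the other members under LPS, and the CO2 panels, on a narrower scale, hold 5 filled points with LPS and 0 without.

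Activation by acyl-CoA synthetases held the largest rises of any member, those of ACSL1. ACSL1 (ENSG00000151726, chromosome 4, 184755595 to 184826818), the main long-chain synthetase of macrophages, had 1059, 978 and 783 CPM at 10% CO2 with LPS, against 157, 114 and 114 CPM at 10% CO2. At 5% CO2 it had 630, 395 and 565 CPM with LPS, against 137, 101 and 111 CPM without. Every library with LPS lay above every library without it, and among those with LPS the 10% CO2 libraries lay above the 5% CO2 libraries. ACSL1 rose with LPS 7.31-fold at 10% CO2 (log2 change 2.87 ± 0.21 SE, adjusted p = 7.24e-07) and 4.55-fold at 5% CO2 (2.19 ± 0.20, adjusted p = 9.36e-06). With LPS it was 1.77-fold higher at 10% than at 5% CO2 (0.83 ± 0.19, adjusted p = 0.0259), and without LPS the CO2 difference was 0.14 ± 0.20 (adjusted p = 0.754). The difference between those CO2 effects, 0.68 ± 0.28, did not pass (adjusted p = 0.775). The CO2 call with LPS was lost without replicate 1 of 10% CO2 with LPS (0.74, adjusted p = 0.0626) or replicate 2 (0.81, adjusted p = 0.10), and when the fit held the compared groups alone (adjusted p = 0.0591). Averaged over LPS, the CO2 rise was 0.48 ± 0.14 (adjusted p = 0.0345), lost (adjusted p of 0.0592 to 0.0879) when 10% CO2 with LPS replicate 1 or 2, 10% CO2 replicate 1, or 5% CO2 replicate 2 or 3 was left out.

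ACSL5, an isoform of mitochondria and endoplasmic reticulum, followed ACSL1 at a smaller scale. It had 83.4, 94.8 and 83.0 CPM at 10% CO2 with LPS, against 49.8, 53.5 and 48.6 CPM at 10% CO2. In cells at 5% CO2 it had 61.7, 64.5 and 71.4 CPM with LPS, against 47.7, 48.8 and 49.0 CPM without. The groups with LPS did not overlap with each other or with those without. ACSL5 rose with LPS by 0.78 ± 0.09 at 10% CO2 (adjusted p = 1.10e-06) and by 0.44 ± 0.09 at 5% CO2 (adjusted p = 0.000944), and with LPS it was higher at 10% than at 5% CO2 by 0.40 ± 0.09 (adjusted p = 0.0101). That CO2 call was lost without replicate 2 of 10% CO2 with LPS (0.35, adjusted p = 0.0779) or replicate 1 of 5% CO2 with LPS (0.36, adjusted p = 0.0654). Averaged over LPS the CO2 rise was 0.23 ± 0.06 (adjusted p = 0.0166), lost without 10% CO2 replicate 2 (adjusted p = 0.0559) or replicate 1 of 5% CO2 with LPS (adjusted p = 0.0521), and without LPS the difference was 0.06 ± 0.09 (adjusted p = 0.762). ACSL5 shares 3.4% of its exon bases with ZDHHC6 on the opposite strand, whose own CO2 change with LPS was 0.51 (adjusted p = 0.00314), and the strand setting of the counting is not given in the sources used here.

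ACSL3, an isoform of lipid droplets and endoplasmic reticulum, and ACSL4, which prefers arachidonic acid, were called in none of the 6 contrasts. ACSL3 ranged from 105 to 129 CPM and ACSL4 from 66.1 to 103 CPM over the 12 libraries. With LPS, ACSL4 had 91.9 to 101 CPM at 10% CO2, against 75.2 to 83.8 CPM at 5% CO2. That difference of 0.26 ± 0.12 did not pass (adjusted p = 0.161), and did when the fit held the compared groups alone (adjusted p = 0.0429). Per kilobase, the make-up of the synthetase mRNA pool differed between groups. ACSL1 made up 73.6% ± 2.96 of the pool at 10% CO2 with LPS, against 65.1% ± 6.21 at 5% CO2 with LPS, and 33.4% ± 2.55 at 10% CO2, against 31.4% ± 3.38 at 5% CO2 (SD, n = 3 each). Shares of 1 pool are tied to each other, so ACSL3 and ACSL4 lost share without a change in level that passed the main test.

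**Figure D3:**
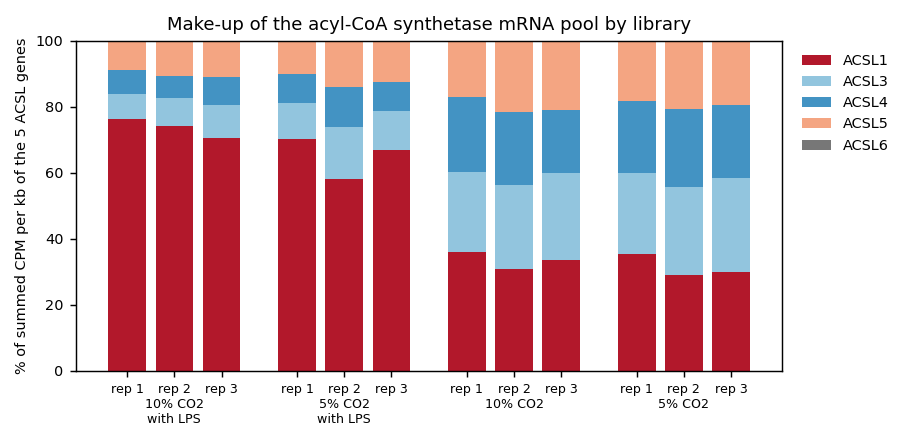
Percent of the summed CPM per kilobase of the 5 ACSL genes that each gene supplied, as 1 stacked bar per library. The ACSL1 segment spans 58.2 to 76.3% in the 6 libraries with LPS, against 29.0 to 35.9% in the 6 without.

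Of the 7 carnitine shuttle genes, 3 fell with LPS at 10% CO2 and 2 at 5% CO2, and 0 rose. Among all genes tested, 18.6% were called lower and 16.6% higher at 10% CO2, and 13.1% lower and 11.8% higher at 5% CO2. With 7 genes, these counts are no result about the step. SLC22A5 (OCTN2), the carnitine importer of the plasma membrane, had 4.73, 3.89 and 6.01 CPM at 10% CO2 with LPS, against 8.38, 8.62 and 9.14 CPM at 10% CO2. The values at 5% CO2 were 3.90, 3.67 and 4.67 CPM with LPS, against 6.51, 7.28 and 7.47 CPM without. No library with LPS reached any library without it. SLC22A5 fell with LPS by 0.83 (SE 0.16, adjusted p = 0.000577) at 10% CO2 and by 0.79 (SE 0.17, adjusted p = 0.00154) at 5% CO2, and it kept both calls without any single library.

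SLC25A20, the carnitine-acylcarnitine carrier of the inner membrane, had 12.9, 13.9 and 12.5 CPM at 10% CO2 with LPS, against 19.2, 20.2 and 20.2 CPM at 10% CO2. In cells at 5% CO2 it had 14.5, 13.0 and 12.7 CPM with LPS, against 17.8, 16.7 and 15.3 CPM without. The libraries at 10% CO2 without LPS were the highest of all 12. SLC25A20 fell with LPS by 0.60 (SE 0.11, adjusted p = 0.00025) at 10% CO2 and by 0.31 (SE 0.11, adjusted p = 0.0439) at 5% CO2. The call at 5% CO2 stood at the threshold: it was kept when 5% CO2 replicate 3, 5% CO2 with LPS replicate 1, 10% CO2 replicate 1 or 10% CO2 replicate 3 was left out and lost without any of the other 8 libraries (adjusted p up to 0.174, without 5% CO2 replicate 1), and DESeq2 gave an adjusted p of 0.0589.

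CPT2, the transferase that frees the acyl group inside the mitochondrion, had 47.0, 49.6 and 60.2 CPM at 10% CO2 with LPS, against 64.5, 66.6 and 75.4 CPM at 10% CO2. The values at 5% CO2 were 57.4, 63.5 and 65.1 CPM with LPS, against 70.0, 76.1 and 76.7 CPM without. Within each CO2 level the groups did not overlap. CPT2 fell with LPS at 10% CO2 by 0.40 (SE 0.10, adjusted p = 0.00482), and at 5% CO2 its change of −0.26 ± 0.10 did not pass (adjusted p = 0.0677). CPT1A, the step at which malonyl-CoA restrains the pathway, was called in none of the contrasts. It had 158, 123 and 163 CPM at 10% CO2 with LPS, 143, 184 and 142 CPM at 5% CO2 with LPS, 161, 153 and 168 CPM at 10% CO2, and 175, 169 and 176 CPM at 5% CO2. Its 4 pairwise changes lay between −0.15 and −0.07, with groups that overlapped in 3 of the 4 pairs.

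The genes of short-chain and peroxisomal acylcarnitines, CRAT and CROT, differed by CO2 level in opposite directions. CRAT, carnitine acetyltransferase, had 22.2, 19.9 and 23.8 CPM at 10% CO2 with LPS, against 31.5, 31.9 and 32.2 CPM at 5% CO2 with LPS. Without LPS it had 22.6, 26.8 and 30.6 CPM at 10% CO2, against 31.1, 32.0 and 32.2 CPM at 5% CO2. All 6 libraries at 10% CO2 lay below all 6 at 5% CO2. CRAT fell at 10% CO2 with LPS by 0.54 (SE 0.11, adjusted p = 0.00735), a call lost without replicate 2 of 10% CO2 with LPS (−0.46, adjusted p = 0.0701), and without LPS its change of −0.25 ± 0.11 did not pass (adjusted p = 0.233). Averaged over LPS it fell by 0.39 (SE 0.08, adjusted p = 0.00251), and this call stood without any single library.

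CROT, the peroxisomal octanoyltransferase, was a low mRNA with 4.02, 2.81 and 3.15 CPM at 10% CO2 with LPS, against 2.6, 1.5 and 2.66 CPM at 5% CO2 with LPS. In cells without LPS it had 5.15, 4.41 and 4.64 CPM at 10% CO2, against 3.25, 3.69 and 3.20 CPM at 5% CO2. At each LPS state the 10% CO2 libraries lay above those at 5% CO2. Averaged over LPS, CROT rose at 10% CO2 by 0.52 ± 0.15 (adjusted p = 0.0233), with 0.56 ± 0.22 in cells with LPS (adjusted p = 0.123) and 0.49 ± 0.20 in cells without (adjusted p = 0.220). Leaving out 10% CO2 with LPS replicate 1, 5% CO2 with LPS replicate 2 or 5% CO2 replicate 1 ended the averaged call, with adjusted p of 0.0606, 0.0599 and 0.0516.

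**Figure D4:**
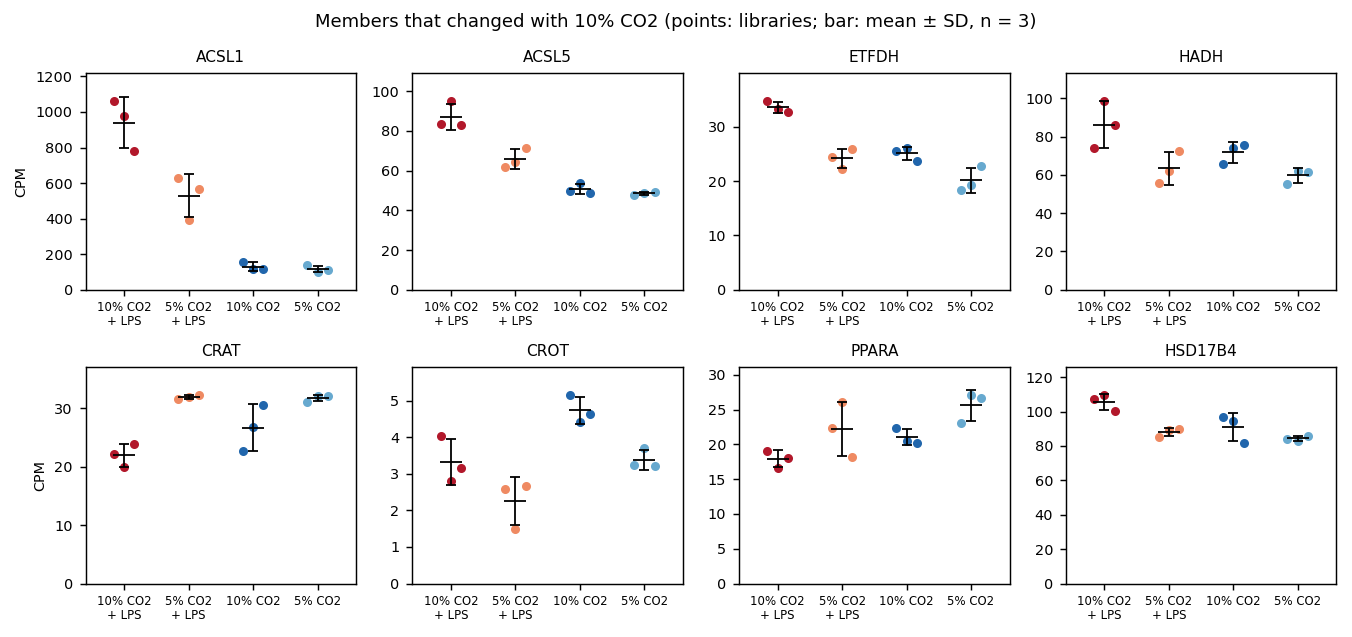
CPM in each library (points) with mean and SD (bars) for the 8 members called for 10% against 5% CO2 averaged over LPS, from 0 on each vertical axis. ACSL1 and ACSL5 separate by CO2 among the libraries with LPS, while CRAT lies at 31.1 to 32.2 CPM in all 6 libraries at 5% CO2 and at 19.9 to 30.6 CPM in the 6 at 10% CO2.

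Of the 7 acyl-CoA dehydrogenase genes, 2 fell with LPS at 10% CO2 (ACAD8 and ACADS), 1 at 5% CO2 (ACAD8), and 0 rose. The shares of all genes called lower were 18.6% and 13.1%, so these counts are no result about the step. ACADVL, which opens the oxidation of long chains at the inner membrane, was called in none of the contrasts. It had 210, 227 and 220 CPM at 10% CO2 with LPS, 233, 215 and 238 CPM at 5% CO2 with LPS, 187, 201 and 244 CPM at 10% CO2, and 225, 236 and 190 CPM at 5% CO2. These values overlapped in all 4 pairs of groups. With the correction for GC content its LPS change at 10% CO2 was 0.24 (adjusted p = 0.0113), against 0.06 ± 0.10 (adjusted p = 0.706) without the correction. ACADM, the medium-chain enzyme (90.0 to 124 CPM), ACAD9, which also helps assemble respiratory complex I (49.98 to 67.5 CPM), and ACAD10 (23.8 to 32.1 CPM) were called in none of the contrasts. With the GC correction ACAD9 passed for LPS at 10% CO2 (0.25, adjusted p = 0.0273, against 0.10 without the correction) and at 5% CO2 (0.26, adjusted p = 0.0254, against 0.19 without it).

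ACAD8, isobutyryl-CoA dehydrogenase of valine breakdown, had 16.6, 17.2 and 17.9 CPM at 10% CO2 with LPS, against 27.1, 28.7 and 27.2 CPM at 10% CO2. At 5% CO2 it had 16.2, 15.8 and 14.3 CPM with LPS, against 26.1, 23.0 and 22.4 CPM without. The gap between the groups was wider than the spread within any of them. ACAD8 fell with LPS by 0.68 (SE 0.10, adjusted p = 2.77e-05) at 10% CO2 and by 0.63 (SE 0.10, adjusted p = 0.000116) at 5% CO2, and both calls stood without any single library. ACADS, the short-chain enzyme, had 15.8, 17.3 and 17.8 CPM at 10% CO2 with LPS, against 16.8, 22.9 and 27.9 CPM at 10% CO2, and 22.4, 21.1 and 24.8 CPM at 5% CO2 with LPS, against 21.9, 26.1 and 23.6 CPM at 5% CO2. The groups with and without LPS overlapped at each CO2 level, while with LPS the 10% CO2 libraries lay below those at 5% CO2. That CO2 difference of −0.42 ± 0.15 did not pass (adjusted p = 0.0751), and did when the fit held the compared groups alone (adjusted p = 0.0272) or no count filter was used (adjusted p = 0.0183). The fall of ACADS by 0.41 (SE 0.15, adjusted p = 0.0353) with LPS at 10% CO2 was lost without 10% CO2 replicate 3 (−0.22, adjusted p = 0.249) or 2 (adjusted p = 0.0839), without any 1 of the 3 libraries at 10% CO2 with LPS (adjusted p = 0.0597 to 0.121), and with the GC correction (−0.16, adjusted p = 0.295).

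Of the 5 genes for hydration, the second oxidation and thiolysis, 1 was called, and only for CO2. Of all genes, 8.75% were called for CO2 with LPS and 16.8% averaged over LPS, against 35.2% and 24.9% for LPS at 10% and 5% CO2. HADHA (chromosome 2, 26190635 to 26244726) had 364, 382 and 401 CPM at 10% CO2 with LPS, 384, 427 and 413 CPM at 5% CO2 with LPS, 342, 369 and 343 CPM at 10% CO2, and 368, 388 and 379 CPM at 5% CO2. Its changes with LPS were 0.12 ± 0.07 at 10% CO2 (adjusted p = 0.206, and 0.18, adjusted p = 0.0325, with the GC correction) and 0.11 ± 0.07 at 5% CO2 (adjusted p = 0.312). HADHB, whose gene starts beside HADHA on the opposite strand, had changes of 0.13 and 0.14, ECHS1 of 0.06 and 0.12, and the thiolase gene ACAA2 of −0.01 and −0.08, none of them called.

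HADH, the short- and medium-chain hydroxyacyl-CoA dehydrogenase, was the exception. It had 74.0, 98.4 and 86.3 CPM at 10% CO2 with LPS, against 55.7, 62.0 and 72.5 CPM at 5% CO2 with LPS. Without LPS it had 65.5, 74.3 and 75.5 CPM at 10% CO2, against 55.1, 62.3 and 61.7 CPM at 5% CO2. At each LPS state the 10% CO2 libraries lay above those at 5% CO2. HADH rose at 10% CO2 with LPS by 0.44 ± 0.11 (adjusted p = 0.0217) and, averaged over LPS, by 0.35 ± 0.08 (adjusted p = 0.00625), while its change of 0.27 ± 0.11 without LPS did not pass (adjusted p = 0.228). The call with LPS was lost without replicate 2 of 10% CO2 with LPS (0.35, adjusted p = 0.142) or 3 (adjusted p = 0.0558) and on leaving out replicate 1 of 5% CO2 with LPS (0.36, adjusted p = 0.119) or 2 (0.43, adjusted p = 0.0810), and the averaged call stood without any single library.

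Among the auxiliary enzymes that prepare unsaturated chains, the isomerase genes ECI1 (34.3 to 49.1 CPM) and ECI2 (9.77 to 13.7 CPM) were called nowhere. DECR1, the dienoyl-CoA reductase, had 71.3, 89.0 and 84.1 CPM at 10% CO2 with LPS, against 56.8, 68.6 and 72.2 CPM at 10% CO2, and 69.5, 78.7 and 83.4 CPM at 5% CO2 with LPS, against 63.7, 73.0 and 76.6 CPM at 5% CO2. These groups overlapped at both CO2 levels. Its rise of 0.31 ± 0.11 with LPS at 10% CO2 (adjusted p = 0.0384) was lost with the GC correction (0.19, adjusted p = 0.279), without 10% CO2 replicate 1 (0.21, adjusted p = 0.153) or 2 (adjusted p = 0.0599), and without replicate 2 of 10% CO2 with LPS (0.25, adjusted p = 0.153) or 3 (adjusted p = 0.111).

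Of the 3 electron transfer genes, ETFA and ETFDH rose with LPS and ETFDH also with CO2. The shares of all genes called higher were 16.6% and 11.8% for LPS at 10% and 5% CO2, and 4.29% for CO2 with LPS. With 3 genes, this is no result about the step. ETFDH, the dehydrogenase that hands electrons to ubiquinone, had 34.7, 33.3 and 32.7 CPM at 10% CO2 with LPS, against 24.4, 22.3 and 25.9 CPM at 5% CO2 with LPS. Without LPS it had 25.6, 26.0 and 23.7 CPM at 10% CO2, against 18.4, 19.3 and 22.8 CPM at 5% CO2. The 3 libraries that combined 10% CO2 with LPS were the highest of the 12, and the 3 at 5% CO2 without LPS included the 2 lowest. ETFDH rose at 10% CO2 with LPS by 0.47 ± 0.10 (adjusted p = 0.00986) and, averaged over LPS, by 0.39 ± 0.07 (adjusted p = 0.0018), the smallest adjusted p of any member for that contrast. With LPS it rose at 10% CO2 by 0.42 ± 0.10 (adjusted p = 0.00334), and at 5% CO2 its change of 0.26 ± 0.10 did not pass (adjusted p = 0.0763). The CO2 call with LPS was lost without replicate 2 of 5% CO2 with LPS (0.42, adjusted p = 0.0584). ETFDH shares 490 exon bases (10.9% of its length) with PPID on the opposite strand, and PPID also rose at 10% CO2 with LPS (0.67, adjusted p = 0.0200) and with LPS at 10% CO2 (0.46, adjusted p = 0.0350), so reads of the 2 genes in that overlap cannot be told apart, the strand setting not being given.

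ETFA, the α subunit of the electron transfer flavoprotein, had 161, 168 and 164 CPM at 10% CO2 with LPS, against 134, 143 and 148 CPM at 10% CO2, and 144, 148 and 154 CPM at 5% CO2 with LPS, against 126, 131 and 123 CPM at 5% CO2. The differences were small, and within each CO2 level the groups did not overlap. ETFA rose with LPS by 0.22 ± 0.07 at 10% CO2 (adjusted p = 0.0273) and by 0.23 ± 0.07 at 5% CO2 (adjusted p = 0.0236). The call at 10% CO2 was lost without 10% CO2 replicate 1 or 2 or any 1 library at 10% CO2 with LPS (adjusted p = 0.0531 to 0.0803), and that at 5% CO2 without 5% CO2 replicate 1 or 3 or replicate 3 of 5% CO2 with LPS (adjusted p = 0.0698 to 0.0976). Its partner ETFB, the β subunit, ranged from 34.6 to 51.6 CPM and was called nowhere.

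In the peroxisomal arm, the bifunctional enzyme genes EHHADH and HSD17B4 moved in opposite directions. EHHADH had 10.3, 9.57 and 11 CPM at 10% CO2 with LPS, against 14.4, 15.8 and 11.8 CPM at 10% CO2, and 9.51, 8.73 and 9.74 CPM at 5% CO2 with LPS, against 12.7, 11.8 and 14.3 CPM at 5% CO2. No library with LPS reached any library without it. EHHADH fell by 0.44 (SE 0.13, adjusted p = 0.0139) at 10% CO2 and by 0.47 (SE 0.13, adjusted p = 0.0134) at 5% CO2. The call at 10% CO2 was lost without 10% CO2 replicate 2 (−0.35, adjusted p = 0.0833) or replicate 2 of 10% CO2 with LPS (−0.38, adjusted p = 0.0701), and that at 5% CO2 without 5% CO2 replicate 3 (−0.39, adjusted p = 0.0694) or replicate 2 of 5% CO2 with LPS (−0.41, adjusted p = 0.0619).

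HSD17B4 had 107, 109 and 101 CPM at 10% CO2 with LPS, against 96.8, 94.6 and 81.6 CPM at 10% CO2, and 85.3, 89.3 and 90.0 CPM at 5% CO2 with LPS, against 84.3, 83.0 and 85.8 CPM at 5% CO2. It was highest in the 3 libraries that combined 10% CO2 with LPS. HSD17B4 rose with LPS at 10% CO2 by 0.22 ± 0.08 (adjusted p = 0.0491) and with CO2 averaged over LPS by 0.19 ± 0.06 (adjusted p = 0.0357), and both calls were lost with the GC correction (0.09, adjusted p = 0.288, and 0.10, adjusted p = 0.134). The LPS call was lost without any library but 10% CO2 replicate 1 (adjusted p up to 0.201), and the averaged CO2 call without any library but the replicates 3 of the 4 groups (adjusted p up to 0.0977). The acyl-CoA oxidase gene ACOX3 (26.7 to 32.8 CPM) and the thiolase gene ACAA1 (26.9 to 38.5 CPM) were called nowhere.

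Among the regulators, PDK4 had the largest fall of any member. PDK4 (ENSG00000004799, chromosome 7, 95583499 to 95596491) encodes a kinase that shuts pyruvate dehydrogenase when fatty acids are burnt, and is a known PPAR target. It had 0.828, 0.0598 and 0.573 CPM at 10% CO2 with LPS (14, 1 and 12 counts), against 5.97, 3.30 and 3.75 CPM at 10% CO2 (131, 65 and 85 counts). At 5% CO2 it had 0.935, 0.930 and 0.639 CPM with LPS (18, 18 and 13 counts), against 8.95, 5.73 and 6.31 CPM without (198, 104 and 136 counts). Every library with LPS lay below 1 CPM and every library without it above 3 CPM. PDK4 fell with LPS by 3.12 (SE 0.41, adjusted p = 1.22e-05) at 10% CO2 and by 3.07 (SE 0.36, adjusted p = 4.83e-06) at 5% CO2. The CO2 changes of −0.75 ± 0.52 with LPS and −0.69 ± 0.28 without did not pass (adjusted p = 0.393 and 0.220), and averaged over LPS PDK4 had −0.72 ± 0.29 (adjusted p = 0.104, and 0.0328 by DESeq2).

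MLYCD, malonyl-CoA decarboxylase, which removes the inhibitor of CPT1, had 9.34, 9.87 and 10.1 CPM at 10% CO2 with LPS, against 15.9, 17.7 and 15.5 CPM at 10% CO2, and 8.73, 9.61 and 10.9 CPM at 5% CO2 with LPS, against 14.1, 14.6 and 15.1 CPM at 5% CO2. The groups with and without LPS were far apart and did not overlap. MLYCD fell by 0.74 (SE 0.12, adjusted p = 6.59e-05) at 10% CO2 and by 0.58 (SE 0.12, adjusted p = 0.00115) at 5% CO2, and both calls stood without any single library. ACACB, the mitochondrial acetyl-CoA carboxylase that makes that inhibitor, ranged from 10.1 to 18.2 CPM and was called nowhere.

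**Figure D5:**
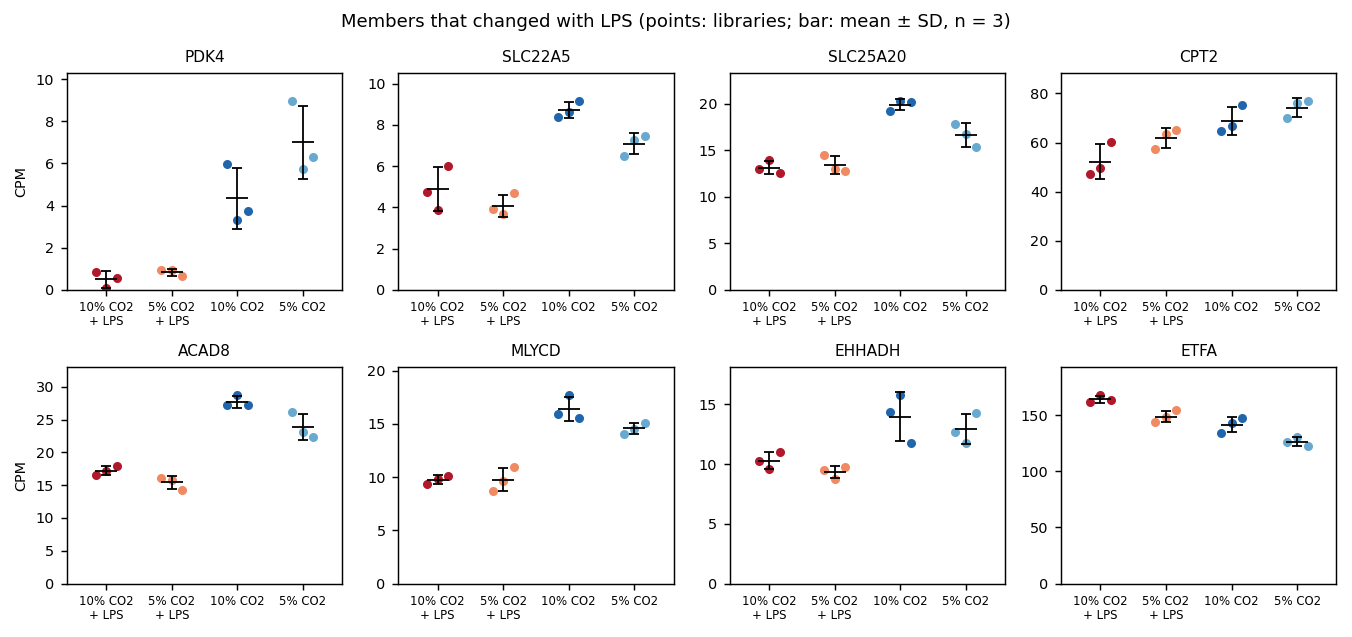
CPM in each library (points) with mean and SD (bars) for 8 members called with LPS at 1 or both CO2 levels, from 0 on each vertical axis. In PDK4, SLC22A5, SLC25A20, ACAD8, MLYCD and EHHADH both groups with LPS lie wholly below both groups without, and in ETFA each group with LPS lies above its own CO2 control.

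PPARA and PPARD encode the fatty acid sensing nuclear receptors that drive many of these genes. PPARA had 19.1, 16.7 and 18.0 CPM at 10% CO2 with LPS, against 22.4, 26.1 and 18.2 CPM at 5% CO2 with LPS, and 22.4, 20.5 and 20.3 CPM at 10% CO2, against 23.0, 27.1 and 26.7 CPM at 5% CO2. It fell at 10% CO2 averaged over LPS by 0.29 (SE 0.09, adjusted p = 0.0267), and was not called within either LPS state (−0.31 ± 0.12 with LPS, adjusted p = 0.131, and −0.28 ± 0.12 without, adjusted p = 0.239). The averaged call was kept when 10% CO2 with LPS replicate 1, 5% CO2 with LPS replicate 3, 10% CO2 replicate 1, 10% CO2 replicate 3 or 5% CO2 replicate 1 was left out and lost without any of the other 7 libraries (adjusted p up to 0.104, without 5% CO2 with LPS replicate 2). PPARD had 111, 56.9 and 73.8 CPM at 10% CO2 with LPS, against 166, 108 and 101 CPM at 5% CO2 with LPS, and 100, 66.7 and 89.6 CPM at 10% CO2, against 153, 115 and 105 CPM at 5% CO2. Libraries of 1 group differed widely in PPARD, with replicate 1 the highest in each group, and its averaged CO2 change of −0.59 ± 0.20 did not pass (adjusted p = 0.0796, and 0.0421 by DESeq2).

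Further genes of the pathway, 89 in all and 79 of them tested, were read beside the members. With LPS at 10% CO2, 4 of the 79 rose and 25 fell (36.7% called), against 35.2% of all genes (16.6% higher and 18.6% lower). At 5% CO2 1 rose and 8 fell (11.4% called), against 24.9% of all genes (11.8% higher and 13.1% lower). No test of this list was made. PPARGC1B, a coactivator of mitochondrial genes, fell by 1.51 (SE 0.19, adjusted p = 7.23e-06) at 10% CO2 and by 1.37 (SE 0.19, adjusted p = 3.39e-05) at 5% CO2. The peroxisome division gene PEX11A fell by 1.29 at 10% CO2 and by 1.03 at 5% CO2, and the peroxisomal thioesterase gene ACOT4 by 0.96 and 0.69. At 10% CO2 alone the call was made for SIRT3, the main mitochondrial deacetylase (−0.85 ± 0.14, adjusted p = 0.000108), and RXRA, the partner of the PPARs (−0.59 ± 0.11, adjusted p = 0.000478). The gene that rose at both CO2 levels was SLC16A9, by 1.91 ± 0.29 at 10% CO2 and 1.65 ± 0.35 at 5% CO2. The interaction called 0 of the 79, with either sign.

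For 10% against 5% CO2 with LPS, 3 of these 79 genes rose and 6 fell (11.4%), against 8.75% of all genes (4.29% higher and 4.46% lower). Without LPS 1 rose and 0 fell, against 1.46% of all genes called. The gene called in both states was SLC27A4 (FATP4), which imports long-chain fatty acids and joins them to coenzyme A. It rose by 0.58 ± 0.12 with LPS (adjusted p = 0.00865) and by 0.57 ± 0.12 without (adjusted p = 0.0248). These calls were lost without replicate 2 of 10% CO2 with LPS (adjusted p = 0.0579) and of 10% CO2 (adjusted p = 0.204). SLC16A9 rose with LPS present by 1.66 ± 0.29 at 10% CO2 (adjusted p = 0.00452). The carnitine synthesis gene ALDH9A1 (−0.26 ± 0.08, adjusted p = 0.0435) and the organic cation transporter gene SLC22A4 (−0.64 ± 0.19, adjusted p = 0.0460) fell in that contrast, and the first call was lost when replicate 2 of 10% CO2 with LPS was left out (adjusted p = 0.185), the other when replicate 2 of 5% CO2 with LPS was left out (adjusted p = 0.272).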

How the data were processed

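RNA-seq was measured in 12 libraries, and the deposited values are raw read counts per Ensembl gene. Per the submitters' processing notes, Trimmomatic 0.36, STAR 2.5.2b and featureCounts of Subread 1.5.2 were used on GRCh38, and the deposited tables have the featureCounts layout. No source used here gives the strand setting, the rule for multimapping reads or the annotation's release. Groups and replicate numbers came from the sample titles, and every count column was used. Symbols came from a reference table that paired 71.1% of 57500 identifiers, holding 99.1% of counts. No library was a copy of another in its group: pairs gave a chi-square of 8.05 to 26.2 per degree of freedom, where sampling noise alone gives about 1.

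The tests used edgeR 4.0.16 (R 4.3.3), with low genes removed by filterByExpr, TMM scaling, and the robust quasi-likelihood F test on 4 group means over all 12 libraries, with Benjamini-Hochberg adjustment over 16402 genes. The common biological coefficient of variation was 10.7%. A floor of 3 counts is 0.132 to 0.179 CPM on the TMM scale, which covers counting error only. Contrasts were 10% against 5% CO2 with LPS, without LPS and averaged, LPS at each CO2 level, and the interaction. Alternatives were DESeq2 1.42.0, RLE scaling, mitochondrially encoded genes left out, no count filter, a GC correction, a replicate block, only the compared groups, and leaving out each library. The members and gene lists were chosen with earlier results of these data known. Named are all members called in any contrast, and CPT1A, CPT2, SLC25A20, ACADVL, HADHA, ACSL1, PPARA, PPARD and PDK4 whether called or not. Coordinates are those of the count tables on GRCh38, and upstream sequences are from RefSeq (GRCh38.p14).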

Additional observations from a re-analysis of the deposited data

How the results depend on the processing

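Of 36 gene results called in the report, 712 values under alternative settings held 615 that kept direction and call, 97 that kept direction and lost the call, and 0 that reversed. Of 35 results not called, 693 such values held 643 that stayed uncalled in the same direction, 28 that gained a call and 22 that reversed. These 35 belong to CPT1A, CPT2, SLC25A20, ACADVL, HADHA, ACSL1, PPARA, PPARD and PDK4, without the interaction. Uncalled results of other members are not in this count. ACSL3, for example, reversed with the GC correction for CO2 with LPS (−0.00612, against 0.116 in the main fit). The count of members called for CO2 with LPS was 5, and 1 to 7 with 1 library left out, 8 with a replicate block and 8 with that block and the GC correction. For CO2 averaged over LPS it was 8, and 5 to 11 with 1 library left out, 13 with the block and 15 with the block and GC correction. Without LPS it was 0 for CO2, 0 with 1 library left out, 1 with the block and 4 with the block and GC correction. For LPS at 10% CO2 it was 14, and 9 to 15 with 1 library left out, 17 with the block and 19 with the block and GC correction. For LPS at 5% CO2 it was 9, and 7 to 10 with 1 library left out, 12 with the block and 19 with the block and GC correction. For the interaction it was 0 throughout. The main fit had no replicate block, since the labels give only a number and no source used here states a block. In deviations from group means, 9 of 18 same-numbered pairs correlated over 0.1. The same-numbered range was −0.136 to 0.290, against −0.2865 to 0.2105 for different numbers. Among the 9 were the 6 pairs of replicates 1 and the 3 pairs of 10% CO2 with LPS and 10% CO2. A library of their own number was the best match for 6 of 12 libraries, so whether the numbers mark shared batches cannot be told. With the block PPARD passed for CO2 (−0.65 with LPS, adjusted p = 0.00243, −0.54 without, 0.0157, and −0.59 averaged, 0.000191), as did ACADS with LPS (−0.43, adjusted p = 0.0320) and averaged (−0.26), PDK4 averaged (−0.73) and CPT2 averaged (−0.18) and for LPS at 5% CO2 (−0.26). Over all genes, CO2 without LPS had 240 calls, and 669 by DESeq2, 572 with no filter, 699 with the block, 811 with the GC correction, 1907 with both, 71 with only the compared groups and 0 (without 10% CO2 replicate 2) to 511 (without 10% CO2 replicate 1) with 1 library left out. CO2 with LPS had 1435, and 2886 with block and GC correction and 271 (without 10% CO2 with LPS replicate 2) to 1804 with 1 library left out. The averaged CO2 contrast had 2748, and 4532 with block and GC correction and 1664 to 3005 with 1 library left out. LPS at 10% CO2 had 5773, and 6375 with the block, 7128 with block and GC correction and 4652 to 5923 with 1 library left out. LPS at 5% CO2 had 4092, and 4622 with the block, 5832 with block and GC correction and 3116 to 4371 with 1 library left out. The interaction had 4, and 55 by DESeq2, 1 with RLE scaling, 108 with no filter, 11 with the block, 30 with block and GC correction and 1 to 37 with 1 library left out. Directions that changed among these 35 results were all of uncalled log2 values near 0. ACADVL had 0.0620 for CO2 with LPS with the GC correction and 0.0624 with the block too, and 0.0228 and 0.0224 averaged over LPS. PPARD had −0.00966 for LPS at 5% CO2 with the block, and for LPS at 10% CO2 0.0912 with the GC correction and 0.0687 with the block too. With 1 library left out, ACSL1 had −0.0260 to 0.28 for CO2 without LPS, CPT1A −0.15 to 0.0670 for CO2 with LPS and −0.19 to 0.0107 for LPS at 10% CO2, and SLC25A20 −0.0677 to 0.0267 for CO2 with LPS. ACADVL likewise had −0.16 to 0.0397 for CO2 without LPS, −0.0234 to 0.17 for LPS at 10% CO2 and −0.0133 to 0.14 at 5% CO2, and PPARD −0.38 to 0.12 for LPS at 10% CO2 and −0.25 to 0.18 at 5% CO2. Without mitochondrially encoded genes, all 32 summed levels (8 steps in 4 groups) were 1.5 to 3.03% higher, and 2 moved by more than their SD: electron transfer at 10% CO2 with LPS (249 against 242 CPM) and the carnitine shuttle at 5% CO2 (315 against 311 CPM). The cause of these changes was not tested. Depth limits ACSL6, CPT1B, CROT, PDK4 and ACAD11, which averaged under 4 CPM.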

Other observations

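Genes of lipid storage and synthesis that neighbour the pathway were also measured, and each count stands against the shares of all genes called in the same contrast. With LPS at 10% CO2 these were 35.2% (16.6% higher and 18.6% lower), and at 5% CO2 24.9% (11.8% higher and 13.1% lower). For 10% against 5% CO2 with LPS they were 8.75% (4.29% higher and 4.46% lower). Of 11 tested genes of lipid droplets, 2 rose and 1 fell with LPS at 10% CO2, and 1 rose and 0 fell at 5% CO2. G0S2, which restrains the triglyceride lipase, rose by 1.39 ± 0.47 at 10% CO2 (adjusted p = 0.0463, and 0.158 without 10% CO2 with LPS replicate 1) and by 2.13 ± 0.48 at 5% CO2 (adjusted p = 0.0101). For 10% against 5% CO2 with LPS, 0 rose and 2 fell: PNPLA2, that lipase (−0.42 ± 0.10, adjusted p = 0.0183), and the coat protein gene PLIN3 (−0.41 ± 0.09, adjusted p = 0.0116), the first call lost when replicate 1 of 5% CO2 with LPS was left out (adjusted p = 0.0936), the other when replicate 2 of 10% CO2 with LPS was (adjusted p = 0.105). Of 10 tested PPAR targets outside the members, 1 rose and 4 fell with LPS at 10% CO2 and 1 rose and 3 fell at 5% CO2. PLIN2, a droplet coat protein gene, was the one that rose (1.71 ± 0.41 at 10% CO2 and 1.91 ± 0.41 at 5% CO2), and TXNIP, a sensor of glucose and redox state, fell by 0.78 and 1.09. Of 9 tested lipogenesis genes, SREBF1 (−0.62 ± 0.14, adjusted p = 0.0155) and MLXIPL (−0.80 ± 0.22, adjusted p = 0.0312), transcription factor genes of fat synthesis, fell at 10% CO2 with LPS, and 0 rose. The SREBF1 call was lost when replicate 2 of 10% CO2 with LPS was left out (adjusted p = 0.0964), that of MLXIPL when replicate 1 of 5% CO2 with LPS was (adjusted p = 0.183). The elongase gene ELOVL5 rose with LPS by 0.87 ± 0.08 at 10% CO2 and by 0.51 ± 0.08 at 5% CO2. Values come from edgeR's quasi-likelihood test.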
